A study of Mus musculus with 10 samples.

Results

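This account covers what 16 nM nilotinib did to the RNA of irradiated mouse embryonic fibroblasts (MEFs) in the absence of leukemia cells. It compares all 21789 probesets that pair with 1 gene symbol, out of 35557 on the Affymetrix Mouse Gene 1.0 ST array, between 3 arrays of MEFs + nilotinib and 3 arrays of MEFs + DMSO. No gene passed the test between the groups. The MEFs of both groups were wild type fibroblasts that had been irradiated with 1000 rad before plating, grown in serum with 10 ng/ml murine IL-3, and kept for 9 days with the drug or with DMSO, its solvent. The replicates were separate dishes plated from MEFs, so the spread measured here is that between dishes and not between preparations or animals. A further 4 arrays, of MEFs that shared the medium with Bcr/Abl-positive acute lymphoblastic leukemia (ALL) cells across a membrane, entered the estimate of the spread, and a single count below is taken from those with nilotinib.

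Nilotinib is a tyrosine kinase inhibitor that holds the Abl kinase in its inactive form and was developed against the fused Bcr/Abl oncoprotein. It also binds normal Abl1 and Abl2, the receptors Kit, Pdgfra, Pdgfrb and Csf1r, and the collagen receptors Ddr1 and Ddr2. Fibroblasts do not carry Bcr/Abl, but they divide and lay down matrix in response to platelet-derived growth factors, and collagen is both their main product and the ligand of the discoidin domain receptors. Irradiated fibroblasts no longer divide but keep secreting matrix and growth factors, which is why they serve as feeder layers. The comparison asks whether the drug by itself altered this layer.

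The cells carried the RNA of fibroblasts in both groups. Of 14 fibroblast markers, 13 lay above the array median, with vimentin (Vim) at a mean signal of 13.3 with DMSO and 13.4 with nilotinib on the log2 scale and fibronectin (Fn1) at 13.6 in both. Fap, a protease of activated fibroblasts, was the marker below the median, at 6.57 and 6.88. Of 17 leukocyte and B-lineage markers 5 lay above the array median. So did 7 of 8 macrophage, 4 of 6 epithelial and 3 of 5 neural markers. For skeletal muscle these were 4 of 12, for endothelium 1 of 6 and for adipocytes 0 of 6. This measure alone therefore does not single out fibroblasts. An array signal has no true 0, so a dim probeset does not show that a gene was silent.

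One array of the drug group stood apart from the other 2 and nearer to the controls. On the leading principal component of the 6 arrays, which held 35.3% of the variance, MEFs + DMSO had scores of -12.8, -18.4 and -19.3, and MEFs + nilotinib had scores of -6.63 for replicate 1, 33.1 for replicate 2 and 24.1 for replicate 3. Replicate 1 of MEFs + nilotinib thus lay beside the DMSO arrays, while replicates 2 and 3 lay on the other side. Across all probesets replicate 1 correlated with DMSO replicates 1, 2 and 3 at r = 0.9946, 0.9942 and 0.9919, and with nilotinib replicates 2 and 3 at 0.9924 and 0.9909. Its correlation with DMSO replicate 3 was thus below that with nilotinib replicate 2. Over probesets with 1 symbol the median absolute log2 difference from the mean of the DMSO arrays was 0.0789 for replicate 1, 0.131 for replicate 2 and 0.0990 for replicate 3, and each DMSO array differed from the mean of the other 2 by 0.0741, 0.0630 and 0.0852. By these values replicate 1 lay within the range of the DMSO arrays and replicates 2 and 3 above it. The baseline was a mean of 3 arrays for nilotinib but of 2 for DMSO, which is noisier and raises the DMSO values. The files hold no measure of drug exposure, so whether this dish responded like the others cannot be settled here, and every mean and interval over 3 nilotinib arrays includes it. Its label was kept, why it stood there was not tested, and the main counts and the genes that turn on it are also given without it.

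**Figure D1:**
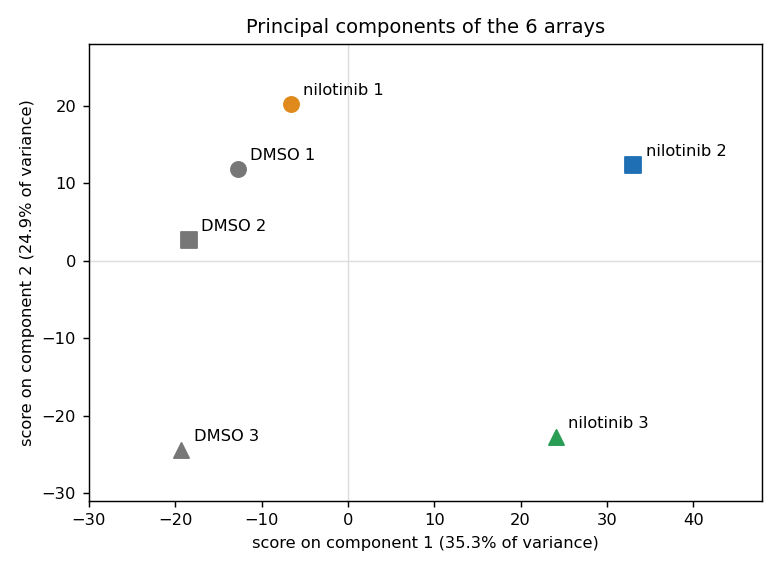
Scores of the 6 arrays on the 2 leading principal components of the log2 signals of all probesets, with the share of variance on each axis; grey symbols are MEFs + DMSO, coloured symbols MEFs + nilotinib, and the shape gives the replicate number. On component 1 nilotinib replicate 1, at -6.63, lies beside the DMSO arrays and replicates 2 and 3 lie at 33.1 and 24.1.

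With all arrays, limma called 0 of 35557 probesets (0%) and so 0 of the 21789 with 1 symbol at an adjusted p under 0.05, and the smallest adjusted p was 0.237 over all probesets and 0.338 over those with 1 symbol. At an unadjusted p under 0.05 there were 1497 higher and 817 lower probesets with 1 symbol. The same fit called 66 of 35557 probesets (0.186%) between MEFs + ALL + nilotinib and MEFs + nilotinib, 53 of them higher with ALL cells, so that calls were possible in this table with 3 arrays a group. In the text below each gene is read from its brightest probeset, which gives 19938 genes, and a difference is the mean log2 signal of MEFs + nilotinib minus that of MEFs + DMSO, with its standard error (SE) from limma.

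The intervals of the differences were narrow. For 19903 genes, or 99.8%, the 95% confidence interval of the difference lay within 2-fold in either direction, and for 95.4% it lay within 1.5-fold. These intervals apply to 1 gene at a time and are not adjusted for the number of genes. The median SE of a difference was 0.0904. Differences ran from -0.76 to 0.86 with a median of 0.0084, so no gene reached a 2-fold difference by its brightest probeset. Without nilotinib replicate 1 the share of genes with an interval within 2-fold was 99.6% and within 1.5-fold 91.0%, and differences ran from -0.99 to 1.17.

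Among all probesets with 1 symbol, 1 went past 2-fold with all arrays, 2 without nilotinib replicate 3 and 4 without nilotinib replicate 1. The latter are those of Gm10874 (1.17), Irs1 (1.07), Tsen15 (1.09) and Trdn (1.33), with adjusted p from 0.054 to 0.098 by limma. The probeset past 2-fold with all arrays belongs to Trdn, which encodes the muscle calcium-release protein triadin. Its log2 signal was 3.59, 3.19 and 2.89 in MEFs + DMSO and 4.36, 4.54 and 4.57 in MEFs + nilotinib, a difference of 1.27 (SE 0.26, adjusted p = 0.338 from limma). All nilotinib arrays lay above all DMSO arrays, replicate 1 included. The probeset is dim, however, and it is 1 of 19 that the annotation assigns to Trdn. The 19 differences ran from -0.19 to 1.27 with a median of 0.22, and 3 of the 19 probesets were higher without overlap. The brightest of them had a difference of 0.098.

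In 3017 genes all nilotinib arrays lay above all DMSO arrays (15.1%), and in 1323 genes they lay below (6.64%). Replicates 2 and 3 alone lay above all DMSO arrays in 4405 genes (22.1%) and below in 3318 (16.6%), where fewer arrays make separation easier. At an unadjusted p under 0.05 the shares were 6.32% higher and 3.72% lower. The direction went with brightness. With the genes cut by mean signal over all 10 arrays into 5 bins of equal size, 3.56% of the dimmest bin were higher without overlap and its median difference was -0.036, against 10.9% and 0.0028 in the middle bin, 21.7% and 0.035 in the next and 34.3% and 0.056 in the brightest. Quantile normalization of the arrays moved the numbers of genes without overlap to 2288 higher and 1718 lower. It also moved the share of higher genes among those at an unadjusted p under 0.05 to 52.99%, from 62.99% as deposited and 69.05% with each array centred on its median. The excess of higher genes therefore depends on the scaling. Beside the count of a list the text gives its share of genes higher without overlap, then the share of all genes in the bin that holds the list's median gene.

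**Figure D2:**
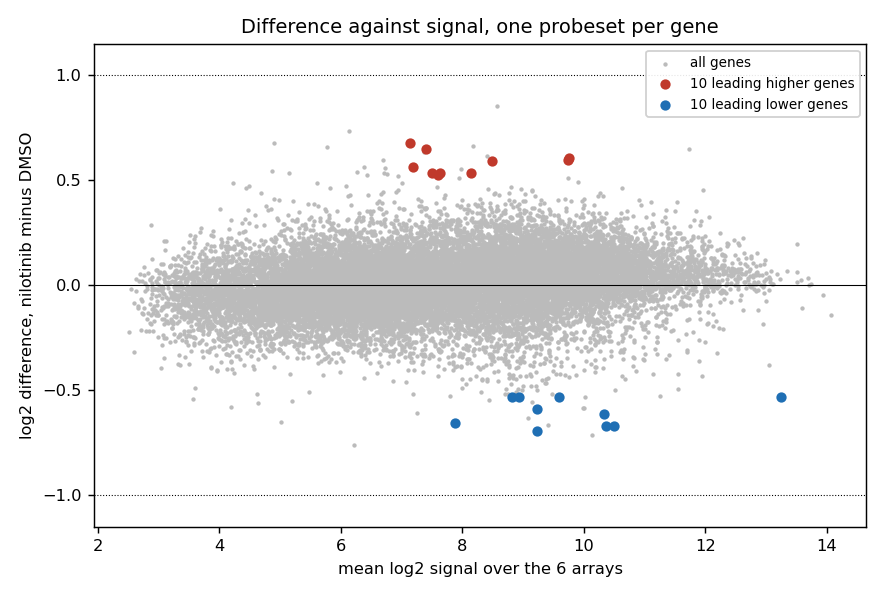
Difference of the mean log2 signals, MEFs + nilotinib minus MEFs + DMSO (vertical axis), against the mean log2 signal over the 6 arrays (horizontal axis) for 19938 genes. Dotted lines mark 2-fold; no gene reaches them, and the leading genes without overlap (red higher, blue lower) lie between 0.52 and 0.69 in size.

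Genes of the proteins that nilotinib binds were all measured, and 0 of 10 passed the test. Their median difference was -0.035, against 0.0084 over all genes. In Abl1 the log2 signals were 10.43, 10.41 and 10.40 with DMSO and 10.41, 10.31 and 10.37 with nilotinib. These values overlapped, and the difference of -0.051 (SE 0.058) had an interval from -0.18 to 0.08. Its homologue Abl2 differed by 0.022 (interval -0.13 to 0.17). Kit, the receptor of stem cell factor, was dim, with signals from 6.43 to 6.64, and differed by 0.033 (interval -0.16 to 0.22).

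The platelet-derived growth factor receptors are the members best known in fibroblasts. Pdgfrb was bright, at 11.77, 11.78 and 11.75 with DMSO and 11.72, 11.77 and 11.92 with nilotinib. It differed by 0.040, with an interval from -0.12 to 0.20 that lies within 1.5-fold. Pdgfra was 7.84, 7.92 and 7.66 with DMSO and 7.68, 7.46 and 7.62 with nilotinib. It had the largest difference of the 10 genes, -0.22 (SE 0.11, adjusted p = 0.492 from limma), and the arrays overlapped because DMSO replicate 3 lay within the nilotinib range.

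Csf1r, the receptor of macrophage colony-stimulating factor, was the member whose arrays did not overlap. It was 8.61, 8.66 and 8.54 with DMSO and 8.40, 8.38 and 8.53 with nilotinib, a difference of -0.17 (SE 0.067, adjusted p = 0.422 from limma) with replicate 3 just under the lowest DMSO array. Being lower without overlap, Csf1r is 1 of 10 genes beside 6.64% of all genes. Of the collagen receptors, Ddr2 was bright and differed by -0.019 (interval -0.15 to 0.11). Ddr1 was 9.74, 9.71 and 9.76 with DMSO and 9.73, 9.44 and 9.57 with nilotinib, a difference of -0.16 (SE 0.080) in which replicate 1 lay inside the DMSO range. In Map3k20, which encodes the stress kinase ZAK, replicates 2 and 3 were again the lower arrays, at 9.72, 9.76 and 9.78 against 9.81, 9.54 and 9.51 (difference -0.13, SE 0.085). The quinone reductase gene Nqo2, whose product is the main target of nilotinib outside the kinases, differed by 0.064 (interval -0.08 to 0.21).

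Among 10 ligands of these receptors, 0 passed the test, and the median difference was -0.00030. Without overlap 2 were higher (20%, beside 34.3% of its bin) and 3 lower (30%, beside 4.89%). The 3 lower genes were all fibrillar collagen genes, whose triple helices are the ligands of Ddr1 and Ddr2. Col1a1, which encodes the α1 chain of type I collagen, was 13.52, 13.49 and 13.52 with DMSO and 13.37, 12.61 and 12.96 with nilotinib. Col1a2, the partner chain of type I collagen, was 13.25, 13.24 and 13.22 with DMSO and 13.13, 12.62 and 12.83 with nilotinib. Col3a1, the chain of type III collagen, was 12.21, 12.14 and 12.14 with DMSO and 12.06, 11.46 and 11.66 with nilotinib. In each, replicate 1 lay closest to the DMSO arrays and replicate 2 lowest.

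The collagen differences were -0.53 (SE 0.16, adjusted p = 0.368 from limma) for Col1a1, or 1.44-fold lower, -0.38 (SE 0.12, adjusted p = 0.369) for Col1a2 and -0.43 (SE 0.14, adjusted p = 0.369) for Col3a1. Without nilotinib replicate 1 they grew to -0.73 (adjusted p = 0.055), -0.51 (adjusted p = 0.058) and -0.60 (adjusted p = 0.055), which still missed the threshold. In RNA of a whole culture, fewer cells that express a gene and less RNA per cell cannot be told apart.

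Since these collagen genes lay lower together, the promoters that RefSeq gives for 2 of them (build GRCm38.p6) are shown, from 150 bases before to 50 bases after the annotated start. Col1a2 covers chr6:4505468-4505667 and Col3a1 chr1:45311388-45311587, both on the plus strand. Capitals mark CCAAT and its reverse complement ATTGG, and TATAAA and its reverse complement TTTATA, which are classical promoter elements.
Col1a2: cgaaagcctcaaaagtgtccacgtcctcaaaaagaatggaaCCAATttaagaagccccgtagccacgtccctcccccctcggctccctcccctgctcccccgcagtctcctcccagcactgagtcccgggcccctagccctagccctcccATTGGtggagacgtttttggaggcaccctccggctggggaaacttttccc
Col3a1: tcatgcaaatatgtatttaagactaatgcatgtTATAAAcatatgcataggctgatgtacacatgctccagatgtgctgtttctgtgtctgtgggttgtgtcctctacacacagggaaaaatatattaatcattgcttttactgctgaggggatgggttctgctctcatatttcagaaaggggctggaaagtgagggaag
The Col1a2 stretch held CCAAT at -109 and ATTGG at 0 bases from the annotated start. The Col3a1 stretch held TATAAA at -117 and neither form of CCAAT. Whether these matches act as promoter elements was not tested. Of 32851 promoters in RefSeq, 28.6% held CCAAT or ATTGG and 8.91% TATAAA or TTTATA in the same window. The matches are given as a description.

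The other ligands differed little. Csf1, the ligand of Csf1r, was 11.22, 11.23 and 11.20 with DMSO and 11.32, 11.36 and 11.30 with nilotinib, which did not overlap (difference 0.11, SE 0.056, adjusted p = 0.484 from limma). Pdgfd, a ligand of Pdgfrb, was 9.97, 9.94 and 9.76 with DMSO and 9.99, 10.26 and 10.10 with nilotinib (difference 0.23, SE 0.087, adjusted p = 0.404), with replicate 1 barely above the highest DMSO array. Pdgfa, Pdgfb, Pdgfc and Il34 differed by -0.031 to 0.018 and overlapped. Kitl, the ligand of Kit, differed by 0.17 (interval -0.11 to 0.45).

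**Figure D3:**
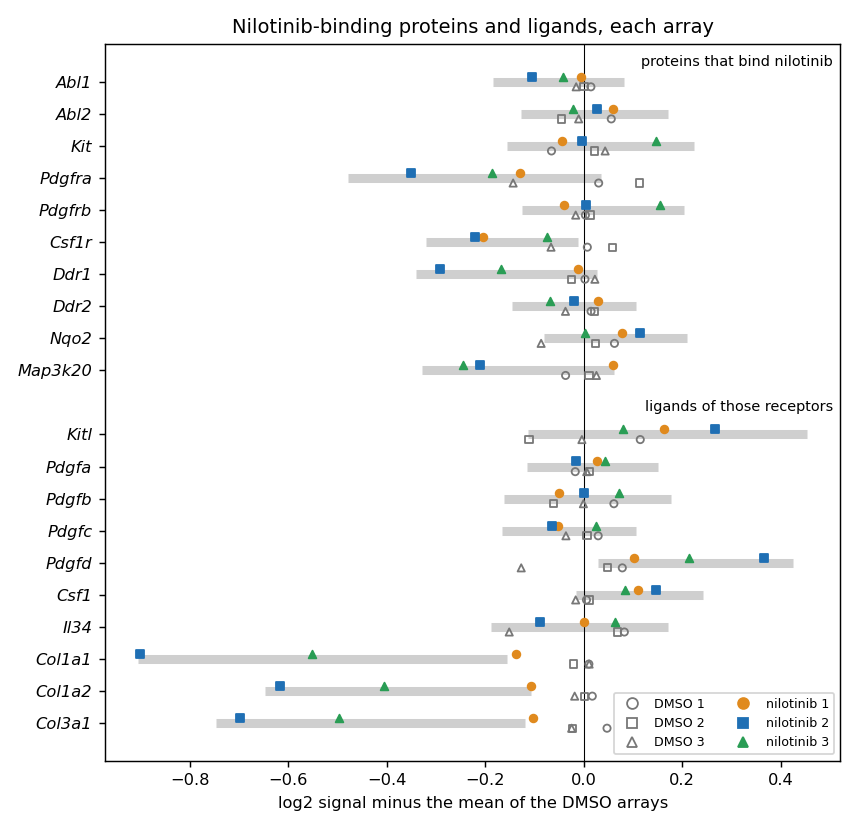
Log2 signal of each array minus the mean of the DMSO arrays (horizontal axis) for the 10 genes of nilotinib-binding proteins and 10 ligand genes; open grey symbols are MEFs + DMSO, filled symbols MEFs + nilotinib by replicate, and grey bars the 95% confidence interval of the difference from limma. Col1a1, Col1a2 and Col3a1 lie lowest, with nilotinib replicate 1 nearest to the DMSO arrays.

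Signalling below these receptors was read from 3 lists, and in each 0 genes passed the test. Of 29 adaptors and enzymes of receptor kinase signalling, 7 were higher and 1 lower (3.45%, beside 4.89%) without overlap. The 24.1% that were higher stand below the 34.3% of the brightest bin (median difference 0.054, turned to -0.0022 by quantile normalization). The adaptor Grb2, which links receptors to Ras activation, was the lower gene, with a difference of -0.30 (SE 0.10, adjusted p = 0.390 from limma). Rasa1, a GTPase-activating protein that switches Ras off, was higher by 0.30 (SE 0.12, adjusted p = 0.424). The Ras exchange factor Sos1 (-0.25) overlapped, and the cytokine receptor kinase Jak2 (0.22) did not.

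Of 20 Abl substrates and actin regulators, 5 were higher (25.0%, beside 34.3%) and 0 lower without overlap, with a median of 0.026 that turned to -0.029 under quantile normalization. They include the Abl interactor Abi2 (0.23), the adhesion protein vinexin Sorbs3 (0.21) and the focal adhesion adaptor paxillin Pxn (0.17), with adjusted p from 0.392 to 0.444 by limma. Of 26 immediate-early and ERK feedback genes, which follow growth factor signalling within hours, 8 were higher (30.8%, beside 21.7%) and 1 lower (3.85%, beside 6.45%) without overlap. Their median was -0.0070 (0.013 with arrays centred). Myc had a difference of 0.24 (SE 0.090), whereas the early growth response genes Egr2 and Egr1 had differences of -0.27 (SE 0.11) and -0.23 (SE 0.097). The arrays did not overlap for Myc and Egr2 and overlapped for Egr1.

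Of 17 genes of drug transport and xenobiotic metabolism, 0 passed the test. Without overlap 0 were higher and 0 lower, beside 10.9% and 6.85% of their bin. The leading differences were negative: Abcg2, the efflux pump that carries nilotinib among other drugs, at -0.47 (SE 0.20), the exporter Abcc4 at -0.31 (SE 0.12) and Ahrr, the repressor of the aryl hydrocarbon receptor, at -0.24 (SE 0.089). In Abcg2 the log2 signals were 9.58, 9.61 and 9.64 with DMSO and 9.68, 8.78 and 8.97 with nilotinib. Replicate 1 lay above every DMSO array and replicates 2 and 3 far below.

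The genes with the largest differences were taken from those at or above the median signal whose arrays did not overlap, leaving out uncharacterised loci, olfactory receptors and small RNA genes. The 10 leading higher genes differed by 0.52 to 0.68, with adjusted p from 0.338 to 0.503 by limma. Ccdc122 led, at 6.93, 6.77 and 6.68 with DMSO and 7.24, 7.81 and 7.37 with nilotinib. Tor1aip1, a lamina-associated protein of the inner nuclear membrane, was 8.28, 8.19 and 8.11 with DMSO and 8.60, 9.02 and 8.73 with nilotinib (difference 0.59, SE 0.11). Usp1, a deubiquitinase of the DNA repair proteins Fancd2 and Pcna, was 6.99, 7.08 and 6.65 with DMSO and 7.48, 7.59 and 7.34 with nilotinib (difference 0.56, SE 0.15).

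The other leading higher genes were the zinc finger genes Zfp942 (0.65), Zfp738 (0.54) and Zfp729b (0.54), the Golgi protein gene Scoc (0.61), the cyclin Y relative Ccnyl1 (0.60), the ribonuclease P RNA gene Rprl1 (0.53) and Emcn (0.52), which encodes endomucin of endothelial cells. In 9 of the 10, replicate 1 was the nilotinib array nearest to the DMSO arrays. Scoc rests on the brighter of its 2 probesets, since the other differed by 0.083. Zfp738 has 3 probesets, with differences of 0.54, -0.070 and 0.60, and zinc finger genes of this kind have close relatives whose RNA their probes may share.

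The 10 leading lower genes differed by 0.53 to 0.69 in size, with adjusted p from 0.362 to 0.399, and in 10 of 10 replicate 1 lay nearest to the DMSO arrays. Exoc3, of the exocyst that tethers secretory vesicles, was 9.54, 9.59 and 9.56 with DMSO and 9.46, 8.45 and 8.70 with nilotinib. Dync1h1, the heavy chain of the cytoplasmic dynein motor, was 10.84, 10.86 and 10.77 with DMSO and 10.69, 9.73 and 10.05 with nilotinib (difference -0.67, SE 0.22). Ltbp3, which binds latent TGF-beta in the matrix, was 10.63, 10.62 and 10.67 with DMSO and 10.58, 9.52 and 9.98 with nilotinib (difference -0.61, SE 0.23). In Exoc3, Dync1h1 and Ltbp3 the DMSO arrays stood close together, and the spread lay between the nilotinib arrays. The DMSO arrays of Prr23a1, also among the 10, stood wider apart, at 7.99, 8.19 and 8.44. Choosing genes without overlap favours DMSO arrays that stand close together.

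The other leading lower genes were the kinase gene Wnk1 (-0.67), the cartilage collagen gene Col2a1 (-0.59), Lrpprc (-0.53), which stabilises mitochondrial messenger RNAs, the zinc transporter gene Slc39a7 (-0.53), Col1a1, Prr23a1 (-0.66) and Pate11 (-0.53). Wnk1 has 2 probesets, with differences of -0.67 and -0.34.

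In the genes with the smallest p-values no nilotinib array, replicate 1 included, fell within the DMSO range, a separation that choosing by p favours. Il18, an inflammatory cytokine, was 5.48, 5.35 and 5.48 with DMSO and 5.73, 5.86 and 5.86 with nilotinib (difference 0.38, SE 0.067). Arl1, a GTPase of the Golgi, was 11.80, 11.76 and 11.72 with DMSO and 12.06, 12.03 and 12.05 with nilotinib (difference 0.29, SE 0.053, or 1.22-fold). Ifi209, an interferon-inducible gene, differed by 0.47 (SE 0.074) at signals from 4.19 to 4.79 near the bottom of the scale, Bod1, which helps orient chromosomes on the spindle, by 0.41 (SE 0.076), and the locus 0610012G03Rik by 0.37 (SE 0.067). In Arl1 and Ifi209 nilotinib replicate 1 was the highest array.

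On the lower side these were the defensin gene Defb7 (-0.41, SE 0.063), the small nucleolar RNA gene Snord104 (-0.55, SE 0.098), the olfactory receptor gene Olfr345 (-0.40, SE 0.089), the patterning gene Hoxa4 (-0.29, SE 0.065) and Wdr76 (-0.26, SE 0.060). Hoxa4 was 8.50, 8.52 and 8.60 with DMSO and 8.32, 8.17 and 8.25 with nilotinib. Defb7 and Olfr345 also lay near the bottom of the scale, with signals from 3.64 to 4.32. The adjusted p was 0.338 for each of these 10 genes by limma.

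Without replicate 1 of MEFs + nilotinib, 57 probesets passed the test, 19 higher and 38 lower. Of these, 23 pair with 1 symbol (0.106% of 21789), 1 higher and 22 lower, each by the probeset that passed, all at an adjusted p of 0.0496 by limma, just under the threshold of 0.05. Their differences were 0.51 to 0.99 in size. Leaving out any other array gave 0 calls. Replicates 2 and 3 lay outside the DMSO range for all 23 genes, a separation that choosing by this fit favours. Replicate 1, which had no part in that fit, lay inside the DMSO range for 9, above it for 7 and below it for 7. With all arrays 8 of the 23 did not overlap. The genes are described here as those that set replicates 2 and 3 apart from the other 4 arrays.

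The higher gene was Naca, a subunit of the complex that binds nascent chains at the ribosome. Its signals were 11.30, 11.29 and 11.23 with DMSO and 11.46, 11.95 and 11.82 with nilotinib, so replicate 1 also lay above the DMSO arrays, at a smaller distance. This is the slightly dimmer of the 2 probesets of Naca, and the other missed the threshold (0.51, adjusted p = 0.054 from limma). The lower genes with the largest differences were Exoc3 (-0.99, SE 0.12), Wnk1 (-0.96, SE 0.11), the metallopeptidase gene Nrd1 (-0.88), Farp1 (-0.86), Arhgef25 (-0.78), B930095G15Rik (-0.85), the spectrin gene Sptbn1 (-0.78), of the skeleton under the plasma membrane, and Mcm3ap (-0.77), which acts in messenger RNA export.

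The rest of the 22 were Hacd3, Lrpprc, Ndufa2, Abcg2, Vcam1, Gigyf2, Phrf1, Son, Kmt2d, Anapc5, Flt1, Herc1, Tut1 and Cnksr3. Vcam1, the adhesion molecule by which stromal cells hold lymphoid cells, was 9.82, 9.89 and 9.75 with DMSO and 10.00, 9.08 and 9.12 with nilotinib. Kmt2d, a histone H3 lysine methyltransferase, was 8.85, 8.74 and 8.74 with DMSO and 8.96, 8.10 and 8.09 with nilotinib by the dimmer of its 2 probesets, while the brighter one missed the threshold (-0.38, adjusted p = 0.089 from limma). In these probesets of Vcam1 and Kmt2d, and in Abcg2 and Ndufa2, replicate 1 lay above all DMSO arrays, opposite to replicates 2 and 3. Flt1, a receptor of vascular endothelial growth factor, was 8.57, 8.62 and 8.47 with DMSO and 8.55, 7.80 and 7.97 with nilotinib, and its replicate 1 lay inside the DMSO range.

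**Figure D4:**
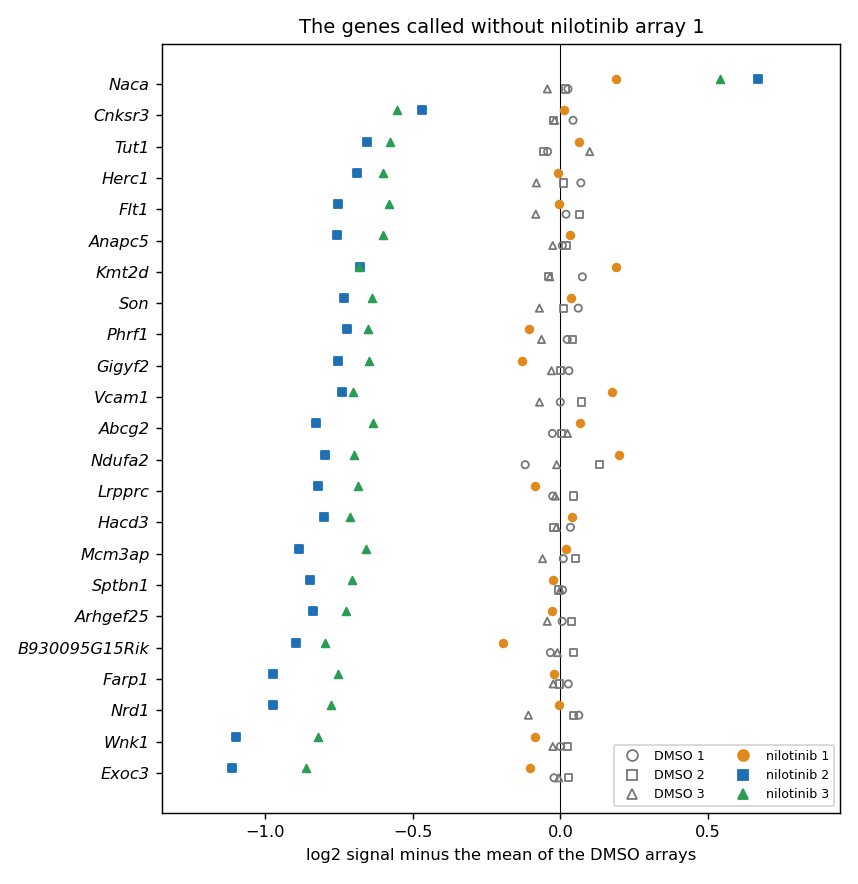
Log2 signal of each array minus the mean of the DMSO arrays (horizontal axis) for the 23 genes that passed limma without nilotinib replicate 1; open grey symbols are MEFs + DMSO and filled symbols MEFs + nilotinib by replicate. Replicates 2 and 3 lie apart from the DMSO arrays in every gene, which choosing by that fit favours. Replicate 1 (orange circle) lies among or near the DMSO arrays.

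In total 34 lists of genes were described by counts, since no list was tested as a set. In all of them 0 genes passed the test with all arrays. Rescaling turned the sign of 12 list medians, the largest of them 0.054 in size, and leaving out replicate 1 turned 6.

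Among the lists the cytosolic ribosomal proteins had the highest share of genes that were higher without overlap. Of 57 genes, 32 were higher and 0 lower without overlap, which is 56.1% beside 15.1% of all genes and 34.3% of the brightest bin, and 54 of the 57 lay above the array median. Their median difference was 0.14, and it was 0.074 in replicate 1, 0.17 in replicate 2 and 0.15 in replicate 3. Quantile normalization lowered the median to 0.086 and the count to 20 higher and 2 lower. The mean log2 signal of the list was 10.98 to 10.99 on the DMSO arrays and 11.07 to 11.15 on the nilotinib arrays. The largest differences were those of Rpl26 (0.39, SE 0.11), Rpl29 (0.34, SE 0.097), Rpl13 (0.33, SE 0.081) and Rps3a1 (0.33, SE 0.17), with adjusted p from 0.338 to 0.508 by limma. These genes have many processed copies in the genome, and probes may read more than 1 of them.

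Histone and cell cycle genes were read because irradiated cells no longer divide. Of 26 replication-dependent histone genes, which are transcribed in S phase, 4 were higher (15.4%, beside 10.9% of its bin and 15.1% of all genes) and 0 lower without overlap (median 0.11). H2bc4 and H2bc14 led with 0.46 (SE 0.11) and 0.44 (SE 0.10), and such genes are near-identical copies whose signals may be shared. Of 28 cell cycle genes 5 were higher (17.9%, beside 10.9% and 15.1%) and 0 lower without overlap (median 0.080). The G1/S cyclin Ccne1 (0.24, SE 0.059) and the helicase subunit Mcm4 (0.22, SE 0.080) did not overlap, and the cyclins Ccne2 (0.31, SE 0.24) and Ccna2 (0.29, SE 0.14) did. Of 20 targets of p53, the transcription factor that answers DNA damage, 3 were higher (15.0%, beside 34.3% of its bin) and 3 lower (15.0%, beside 4.89%) without overlap. The apoptosis genes Fas (-0.32, SE 0.11) and Bbc3 (-0.26, SE 0.064) were among the lower, and Sesn2 (-0.28, SE 0.15) overlapped.

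Of 22 further matrix genes, a list that holds Col3a1 but not Col1a1 or Col1a2, 4 were higher (18.2%, beside 34.3%) and 2 lower (9.09%, beside 4.89%) without overlap. Their median was 0.0016, or -0.040 after quantile normalization. Lum, which encodes the small proteoglycan lumican, differed opposite to the fibrillar collagens, by 0.45 (SE 0.12, adjusted p = 0.359 from limma). Col5a1 and Col5a2, the chains of the minor type V collagen that nucleates fibrils, differed by -0.19 (SE 0.096) and -0.21 (SE 0.086). Of 19 matrix proteases and inhibitors 6 were higher (31.6%, beside 34.3%) and 2 lower (10.5%, beside 4.89%) without overlap (median 0.064). Mmp14, a membrane-bound collagenase, was the largest difference at -0.36 (SE 0.11, and adjusted p = 0.058 without replicate 1), followed by Adamts12 at -0.24 (SE 0.088). The protease inhibitor Timp1 differed by 0.21 (SE 0.065) and plasminogen activator Plat by 0.19 (SE 0.073).

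Within the 14 fibroblast markers 6 were higher (42.9%, beside 34.3%) and 3 lower (21.4%, beside 4.89%) without overlap. The 3 lower were the collagens described above. The higher ones were Thy1 (0.28), Vim (0.066), Dcn (0.16), Lum, Fap (0.31) and S100a4 (0.40, SE 0.093). Of 19 contractile and TGF-beta response genes 9 were higher (47.4%, beside 34.3%) and 1 lower (5.26%, beside 4.89%) without overlap. Their median was 0.039, or -0.00082 after quantile normalization. The smooth muscle proteins Actg2 (0.23, SE 0.061), Cnn1 (0.21, SE 0.060) and Myl9 (0.20, SE 0.063) were among the higher. Smad7, a feedback inhibitor of TGF-beta, differed by -0.25 (SE 0.12) and overlapped.

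Secreted factors showed small differences. Of 22 secreted inflammatory factors 5 were higher (22.7%, beside 10.9%) and 1 lower (4.55%, beside 6.85%) without overlap (median 0.047). Il6, a cytokine of senescent and irradiated fibroblasts, had the largest difference, 0.49 (SE 0.19, adjusted p = 0.410 from limma), followed by the chemokines Ccl5 (0.22, SE 0.11), Cxcl1 (-0.19, SE 0.089) and Ccl7 (0.19, SE 0.093). Of 21 genes by which stroma supports B lymphoid cells 8 were higher (38.1%, beside 21.7%) and 2 lower (9.52%, beside 6.45%) without overlap, with a median of 0.0996 that was 0.038 without replicate 1. Besides Vcam1 (-0.42, SE 0.21) the largest differences were those of the cytokine Tslp (0.32, SE 0.23), Angpt1 (0.26, SE 0.17) and the growth factor Fgf7 (0.23, SE 0.082).

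Stress programmes gave no gene past the test. Of 21 type I interferon response genes 0 were higher and 0 lower without overlap, beside 10.9% and 6.85% of their bin. Their intervals reached at most 1.68-fold. The RNA sensor gene Ddx58 differed by -0.36 (SE 0.17) and Ifih1 by 0.19 (SE 0.13). Of 21 unfolded protein and ATF4 response genes 6 were higher (28.6%, beside 34.3%) and 2 lower (9.52%, beside 4.89%) without overlap. Their median was 0.053, or -0.00048 after quantile normalization. The stress factor Ddit3 differed by 0.31 (SE 0.13), the chaperone gene Dnajb9 by 0.28 (SE 0.12) and Vldlr by -0.34 (SE 0.13). Of 12 heat shock genes 3 were higher (25.0%, beside 34.3%) and 1 lower (8.33%, beside 4.89%) without overlap, led by Hspb1 at 0.18 (SE 0.060). Of 14 genes of the NRF2 and metal response 2 were higher (14.3%, beside 34.3%) and 1 lower (7.14%, beside 4.89%) without overlap. Gstm1, a glutathione transferase, differed by 0.36 (SE 0.093) and Hmox1, heme oxygenase, by 0.16 (SE 0.069), while Prdx1 (0.19, SE 0.10) overlapped. Of 22 autophagy and lysosome genes 7 were higher (31.8%, beside 34.3%) and 0 lower without overlap (median 0.060). Among the higher were Map1lc3b, which coats autophagosomes, at 0.28 (SE 0.068) and Becn1 at 0.14 (SE 0.061). Wipi1 (-0.23, SE 0.12) and Atg12 (0.18, SE 0.097) differed by more than Becn1 and overlapped.

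Metabolic lists were mixed in direction. Of 20 genes of cholesterol and fatty acid synthesis 6 were higher (30%, beside 21.7%) and 3 lower (15%, beside 6.45%) without overlap (median -0.031). Acaca, which catalyses the committed step of fatty acid synthesis, differed by -0.42 (SE 0.12), and the sterol genes Sc5d and Lss by -0.38 (SE 0.20) and -0.26 (SE 0.084). Without replicate 1 Acaca and Sc5d reached -0.57 and -0.64, each at an adjusted p of 0.054 by limma. Of 31 respiratory chain genes 8 were higher (25.8%, beside 34.3%) and 2 lower (6.45%, beside 4.89%) without overlap. Their median was 0.034, or -0.014 after quantile normalization. Ndufa2, of complex I, differed by -0.43 (SE 0.23), and the others named by size were higher: Cycs, cytochrome c, by 0.35 (SE 0.13), Ndufb8 by 0.29 (SE 0.063) and Cox7b by 0.21 (SE 0.10). Of 22 hypoxia and glycolysis genes 5 were higher (22.7%, beside 34.3%) and 0 lower without overlap (median 0.041). The glucose transporter gene Slc2a1 differed by -0.22 (SE 0.10), Pdk1 by 0.17 (SE 0.15) and Vegfa by 0.14 (SE 0.064). Of 17 adipogenic genes 3 were higher (17.6%, beside 10.9%) and 1 lower (5.88%, beside 6.85%) without overlap. They were led by Medag (0.36, SE 0.16) and Cebpd (0.30, SE 0.11).

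Of 1190 olfactory and vomeronasal receptor genes, which fibroblasts do not use, 25 were higher (2.10%, beside 3.56%) and 134 lower (11.3%, beside 8.60%) without overlap (median -0.056, or -0.028 after quantile normalization). Only 15 of them lay above the array median, so this list shows the dim end of the array. Of 51 small nucleolar RNA genes, whose products guide modification of ribosomal RNA, 3 were higher (5.88%, beside 10.9%) and 4 lower (7.84%, beside 6.85%) without overlap. Snord49b was the lowest, with a difference of -0.71 (SE 0.22, adjusted p = 0.368 from limma), followed by Snord104. The list medians were 0.077, -0.044 and -0.17 on nilotinib replicates 1, 2 and 3, so the arrays of the group disagreed in sign.

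Among markers of other cell types, too, 0 genes passed the test. The mean log2 signal of 17 leukocyte and B-lineage markers was 6.65 to 6.77 on the DMSO arrays and 6.59 to 6.74 on the nilotinib arrays, with 1 gene higher and 1 lower without overlap. The lower was Il7r (-0.30, SE 0.082), the interleukin-7 receptor of lymphoid precursors. The mean signal of 8 macrophage markers was 8.56 to 8.70 and 8.49 to 8.68. In this list 0 genes were higher without overlap (beside 21.7%), and Csf1r was the lower gene (12.5%, beside 6.45%). Of 6 endothelial markers only Emcn (0.52) did not overlap, which is 16.7% higher beside 5.19%. Cdh5, Kdr and Tek, which define that cell type, differed by 0.026 to 0.093 and overlapped. Of 6 epithelial markers Krt8 (0.20, SE 0.084) was higher and Cldn4 (-0.19, SE 0.078) lower without overlap. Each is 16.7% of the list, beside 10.9% higher and 6.85% lower in its bin. Of 12 skeletal muscle markers Des (0.33, SE 0.095), which encodes desmin, was the higher gene without overlap, and Myod1 (-0.077, SE 0.062) and Acta1 (-0.083, SE 0.081) were the lower. Of 6 adipocyte markers Fabp4 (0.15, SE 0.063) was higher without overlap (16.7%, beside 5.19%). Of 5 neural markers Map2 (0.29, SE 0.092) and Tubb3 (0.14, SE 0.059) were (40%, beside 10.9%). In lists this short a single gene makes a large share. The median of the neural list, 0.14, was as high as that of the ribosomal proteins but rests on 5 genes. The part of these cell types in the differences above was not tested.

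**Figure D5:**
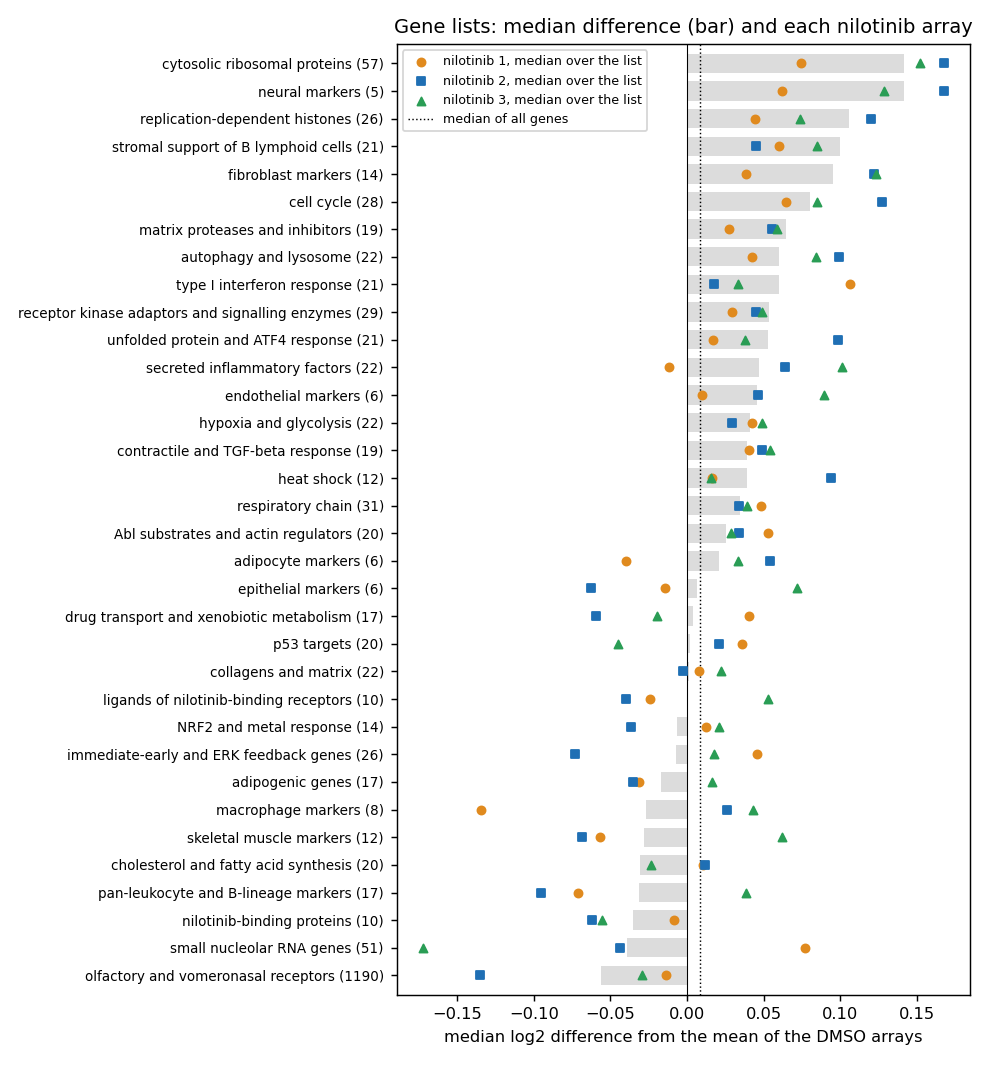
Median log2 difference from the mean of the DMSO arrays (horizontal axis) for 34 gene lists with the number of genes measured; bars are the median of the difference between groups, symbols the median on each nilotinib array, and the dotted line the median of all genes. As deposited, the ribosomal protein list lies highest, at 0.1416 with replicate 1 at 0.074, next to the neural list at 0.1414, and the olfactory receptor list lowest. After quantile normalization the neural list was highest (0.0995) and the nilotinib-binding proteins lowest (-0.105).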

How the data were processed

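RNA of irradiated MEFs was hybridised to Affymetrix Mouse Gene 1.0 ST arrays, 1 array per dish, and the authors deposited log2 values of RMA-normalized probeset signals made with Partek, with version and background settings not given in the sources used here. RMA removes overall differences between arrays, so a change shared by most genes would not be seen. Groups came from the sample titles. Precision is limited by how many arrays there are.

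Of 35557 probesets, 21789 pair with 1 gene symbol in the array annotation, 1621 with several and 12147 with none. By gene ID 21698 matched RefSeq (GRCm38.p6), which changed 0 symbols. A gene was read from the probeset with the highest mean, and 999 genes had more than 1. In R 4.3.3, limma 3.58.1 (lmFit, eBayes) was fitted to all 10 arrays with 4 group means and no replicate block, and Benjamini-Hochberg adjustment covered the whole table, at a threshold of 0.05. Gene lists were described by counts of genes whose arrays do not overlap and by medians, without a set test.

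Named genes were the nilotinib-binding proteins and their ligands, the 10 largest differences of each sign among genes without overlap at or above the median signal, members from the 4 largest differences of each list, the 5 smallest p-values of each sign, and up to 8 genes of each sign called when 1 array is left out. In some lists a member without overlap was named before a larger one that overlapped. Symbols of uncharacterised genes, olfactory receptors and small RNA classes were left out of the second group, from which the ribonuclease P RNA gene Rprl1 was not removed. Fap, Fn1, Vim, Thy1 and Dcn, the probesets past 2-fold (Trdn, Gm10874, Irs1, Tsen15) and the remaining genes called without replicate 1 were named after their values were seen. The members, lists and tests were chosen with earlier results of these data known. On simulated data of the same layout the fit recovered 45% of 100 probesets changed by 0.5 on the log2 scale. It recovered 81% of 100 changed by 1, with 9 false calls among the probesets left unchanged. The simulated noise was independent between arrays and alike in all groups, with no array set apart as nilotinib replicate 1 was. Recovery in the real comparison may therefore differ. The alternatives were other sample sets, moderation, array weights, scalings, a filter on dim probesets, a replicate block and leaving out each array.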

Additional observations from a re-analysis of the deposited data

How the results depend on the processing

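The count of probesets called between MEFs + nilotinib and MEFs + DMSO was 0 under 13 of 14 alternatives and ran from 0 to 57 when each array was left out in turn, with the 57 coming from the fit without nilotinib replicate 1; for probesets with 1 symbol the range was 0 to 23. At an unadjusted p under 0.05 the count of probesets with 1 symbol was 2314, and it ran from 1008 without nilotinib replicate 2 to 3216 without nilotinib replicate 1, with 1448 and 1239 without DMSO replicates 2 and 3. The smallest adjusted p was 0.138 with array weights, 0.172 with trend and robust moderation and 0.868 without nilotinib replicate 2. Deviations of same-numbered arrays from their group means correlated at 0.057, -0.023 and 0.24, and those of differently numbered arrays at -0.19 to 0.15. On component 2, with 24.9% of the variance, replicates 1, 2 and 3 scored 11.9, 2.62 and -24.5 with DMSO. With nilotinib they scored 20.3, 12.4 and -22.7, so replicate 3 lay apart in both groups. Whether same-numbered dishes were handled together was not tested. Limma with the replicate block called 0 probesets, with a smallest adjusted p of 0.522, and 1704 probesets with 1 symbol had an unadjusted p under 0.05. Quantile normalization gave 1183 higher and 982 lower probesets with 1 symbol at that level and centring each array 1658 and 703, against 1497 and 817 as deposited; the cause was not tested. The 20 leading genes kept their sign in 280 of 280 values under these alternatives. They were chosen for arrays without overlap, so leaving out an array could not turn their sign. Of 2425 values of named genes under the alternatives, 16 moved by more than the spread between dishes and 12 passed the threshold, all without nilotinib replicate 1, while 43 of 509 list medians moved. Intervals within 2-fold for nearly all genes limit how large a change in single genes could go unseen. With 3 arrays a group smaller changes could be missed. The 45% recovery at 0.5 came from simulated data without an array like nilotinib replicate 1, so it does not give the recovery in this comparison.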

Other observations

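The probesets of the gamma-satellite-related loci Gm10715, Gm10716, Gm10718 and Gm10800, whose repeats are near-identical so that probes may share signal, had differences below 0 between MEFs + nilotinib and MEFs + DMSO. The differences of the 8 probesets ran from -1.10 to -0.18, 2 of the 8 did not overlap, and 0 passed the test, with a lowest adjusted p of 0.393 by limma. The probeset of Gm10800 had log2 signals of 10.09, 10.46 and 11.12 with DMSO and 10.31, 9.37 and 8.67 with nilotinib, so the DMSO arrays differed among themselves by about as much as the groups did.

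Among 297 microRNA genes, whose probesets read precursor transcripts, 3.70% were higher and 12.5% lower without overlap, with a median difference of -0.074. Among 675 long noncoding RNA genes these shares were 7.11% and 6.52%, with a median of -0.011. The same shares were 15.1% and 6.64% over all genes, and 3.56% and 8.60% in the dimmest bin, where the median was -0.036.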
